A study of Mus musculus with 13 samples.

Results

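The genes of the cytosolic ribosomal proteins were followed in bulk RNA sequencing of mouse perivascular adipose tissue, the fat that lies around blood vessels. Members were chosen by symbol: names that start with Rpl or Rps and a digit, together with Rplp0, Rplp1, Rplp2 and Rpsa. Names holding -ps (pseudogenes), the Rps6k kinases and Rps19bp1 were left out. This gave 90 of the 34013 genes in the count table. Of these, 43 encode proteins of the large subunit, 31 proteins of the small subunit and 3 proteins of the stalk, and these 77 are called core genes here. The other 13 are paralogs or retrogenes of a core gene, and 6 members in all are annotated as pseudogenes in GENCODE M21. A filter on low counts kept 89 members. Rpl39l, the member it removed, had 23 counts over all libraries.

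The 13 libraries came from recipients of transferred splenocytes, and the groups are named for the donor. Donors were wild-type in WTS-R (3 libraries), lacked Nlrp3 in NS-R (3 libraries), had type 2 diabetes (T2DM) in TS-R (4 libraries), and had T2DM without Nlrp3 in NTS-R (3 libraries). All samples are labelled C57BL/6, and their genotype field reads WT or Nlrp3 KO with no word on whether donor or recipient is meant. Age, sex, the model of diabetes, the number of cells given and the time after transfer are not in the labels. The series asks how immune cells of diabetic donors act on this fat. The labels do not say that libraries are separate animals, so p-values measure only how much these samples vary, which may be technical variation.

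Each cytosolic ribosome carries a copy of nearly every ribosomal protein, and cells make these proteins in step. Their mRNAs begin with a terminal oligopyrimidine (TOP) tract, a C followed by pyrimidines, through which mTORC1 and Larp1 set how much of the mRNA is translated. Ribosomal protein mRNA is abundant in growing and dividing cells, among them activated lymphocytes. Mature adipocytes divide little, and brown adipocytes are known instead for abundant mitochondria, whose separate ribosomes use proteins of the Mrpl and Mrps genes. Some ribosomal protein genes have tissue-restricted paralogs: Rpl3l takes the place of Rpl3 in heart and skeletal muscle. Rps27l, a paralog of Rps27, is known as a target of p53.

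Libraries held 14216706 to 37011122 counts. Fat markers were present throughout: Adipoq, an adipocyte hormone, ranged from 363 to 1810 CPM (counts scaled to library size, corrected with edgeR's TMM factors for differences in RNA composition), and Ucp1, the uncoupling protein of brown fat, from 303 to 4370 CPM. TS-R replicate 3 stood apart. Its 14 brown adipocyte markers summed to 1129 CPM against 3839 to 9261 CPM in the other libraries, its 14 B cell markers to 3113 CPM against 14.2 to 645 CPM, and its 14 cell cycle genes to 764 CPM against 23.7 to 123 CPM. In TS-R replicate 3 Glycam1, a marker of high endothelial venules in lymph nodes, measured 965 CPM. TS-R replicates 2 and 4 also held more T and B cell marker RNA than any library of the other groups, but TS-R replicate 1 did not, at 35.4 CPM for 16 T cell and 33.3 CPM for 14 B cell genes. NS-R replicates 1 and 2 differed in another way. Their 10 airway genes summed to 6787 and 13410 CPM, against 23.63 to 120.8 CPM in the other libraries. Their 12 neutrophil genes summed to 440.2 and 780.4 CPM, against 9.583 to 338.8 CPM in the others. In bulk tissue, more cells of a type and more RNA per cell cannot be told apart. Xist was at 530 CPM in NS-R replicate 3 and at 667 CPM in TS-R replicate 3, and at most 0.403 CPM in the others. Together with the Y-linked Ddx3y, Eif2s3y, Kdm5d and Uty it summed to 530.3 and 666.7 CPM there, nearly all of it Xist. In the others that sum was 151.4 to 307.4 CPM, nearly all of it Y-linked. NS-R replicate 3 and TS-R replicate 3 thus had the RNA pattern of females and the others that of males. The part of sex in the results was not tested. Nlrp3, the gene that the NS-R and NTS-R donors lacked, was measured in recipient tissue, so it does not check the donor labels. It stood at 0.252 to 0.707 CPM in WTS-R and at 0.462 to 1.57 CPM in NS-R. In TS-R it stood at 0.455 to 2.94 CPM and in NTS-R at 0.403 to 1.21 CPM. All 4 groups overlapped, and whether the genotype field means donor or recipient was not tested.

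The members together took 1.56% to 4.985% of the assigned counts of a library. In WTS-R replicates 1, 2 and 3 the share was 2.27%, 1.96% and 3.29%. In NS-R replicates 1, 2 and 3 it was 2.145%, 2.765% and 1.705%. In TS-R replicates 1 to 4 it was 3.41%, 3.14%, 4.985% and 2.31%. The highest library was TS-R replicate 3, and TS-R replicate 4 lay within the range of WTS-R. In NTS-R replicates 1, 2 and 3 the share was 2.49%, 2.205% and 1.56%, with the lowest value of all libraries in replicate 3. Group means were 2.51% ± 0.698 (SD, n = 3) in WTS-R, 2.205% ± 0.533 (SD, n = 3) in NS-R, 3.46% ± 1.12 (SD, n = 4) in TS-R and 2.09% ± 0.475 (SD, n = 3) in NTS-R. All groups overlapped with TS-R, and without TS-R replicate 3 its mean was 2.95%. Transcripts encoded by mitochondrial DNA, which share the denominator, made up 6.11% to 22.7% of counts in TS-R and 21.1% to 36.7% in the other groups. Whether that share or the lymphoid RNA bears on the members' share was not tested.

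**Figure D1:**
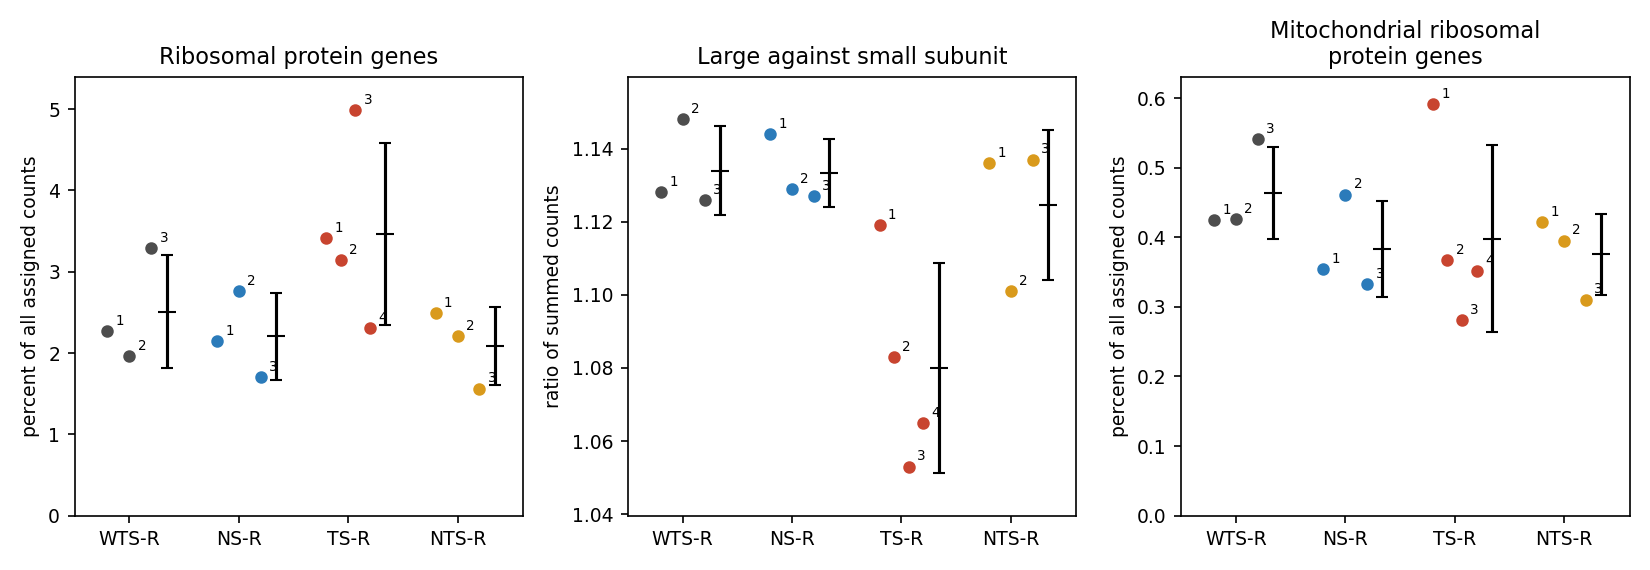
Percent of all assigned counts on the 90 ribosomal protein genes (left), ratio of summed counts of large to small subunit genes (middle) and percent of counts on mitochondrial ribosomal protein genes (right), by group. Points are libraries with their replicate numbers, bars are mean and SD. TS-R replicate 3 is highest on the left (4.985%), and the middle axis does not start at 0.

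Large and small subunit genes kept nearly the same proportion in most libraries, and TS-R had the lowest ratios on average. The summed counts of the 43 large subunit genes were 1.128, 1.148 and 1.126 times those of the 31 small subunit genes in WTS-R replicates 1, 2 and 3. In NS-R replicates 1, 2 and 3 the ratio was 1.144, 1.129 and 1.127. In TS-R replicates 1 to 4 it was 1.119, 1.083, 1.053 and 1.065. Every TS-R library lay below every WTS-R and NS-R library. In NTS-R replicates 1, 2 and 3 the ratio was 1.136, 1.101 and 1.137, so that NTS-R overlapped with TS-R. This ratio does not depend on library scaling, but it was chosen after its values were seen and carries no test.

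Core genes moved together from library to library. The mean log2 CPM over the members had an SD of 0.311 over the 13 libraries. After this mean was taken out of each library, 51 of 77 core genes varied with an SD under 0.2 on the log2 scale. The median core gene varied with 0.171, against 0.37 before. The mean includes these genes, so part of that drop comes from the subtraction itself. No other gene set is given beside it here. Closest to the family were Rps21 (SD 0.077), Rpl18 (SD 0.085) and Rps9 (SD 0.089), all structural proteins of the subunit their name gives. The 12 tested paralogs varied more, with a median SD of 0.458. Farthest from the family were the paralogs Rpl3l (SD 2.16), Rps4l (SD 0.848) and Rpl36al (SD 0.816). Mean levels of the tested paralogs ran from 0.456 CPM (Rpl36al, 130 counts over all libraries) to 89.8 CPM (Rps3a2). The part of counting error in these SDs was not tested. TS-R replicate 3 held the highest CPM of 70 of the 89 tested members, and NTS-R replicate 3 the lowest CPM of 48. WTS-R replicate 3 was the highest library for 14 members. No share of all genes is given beside these counts.

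**Figure D2:**
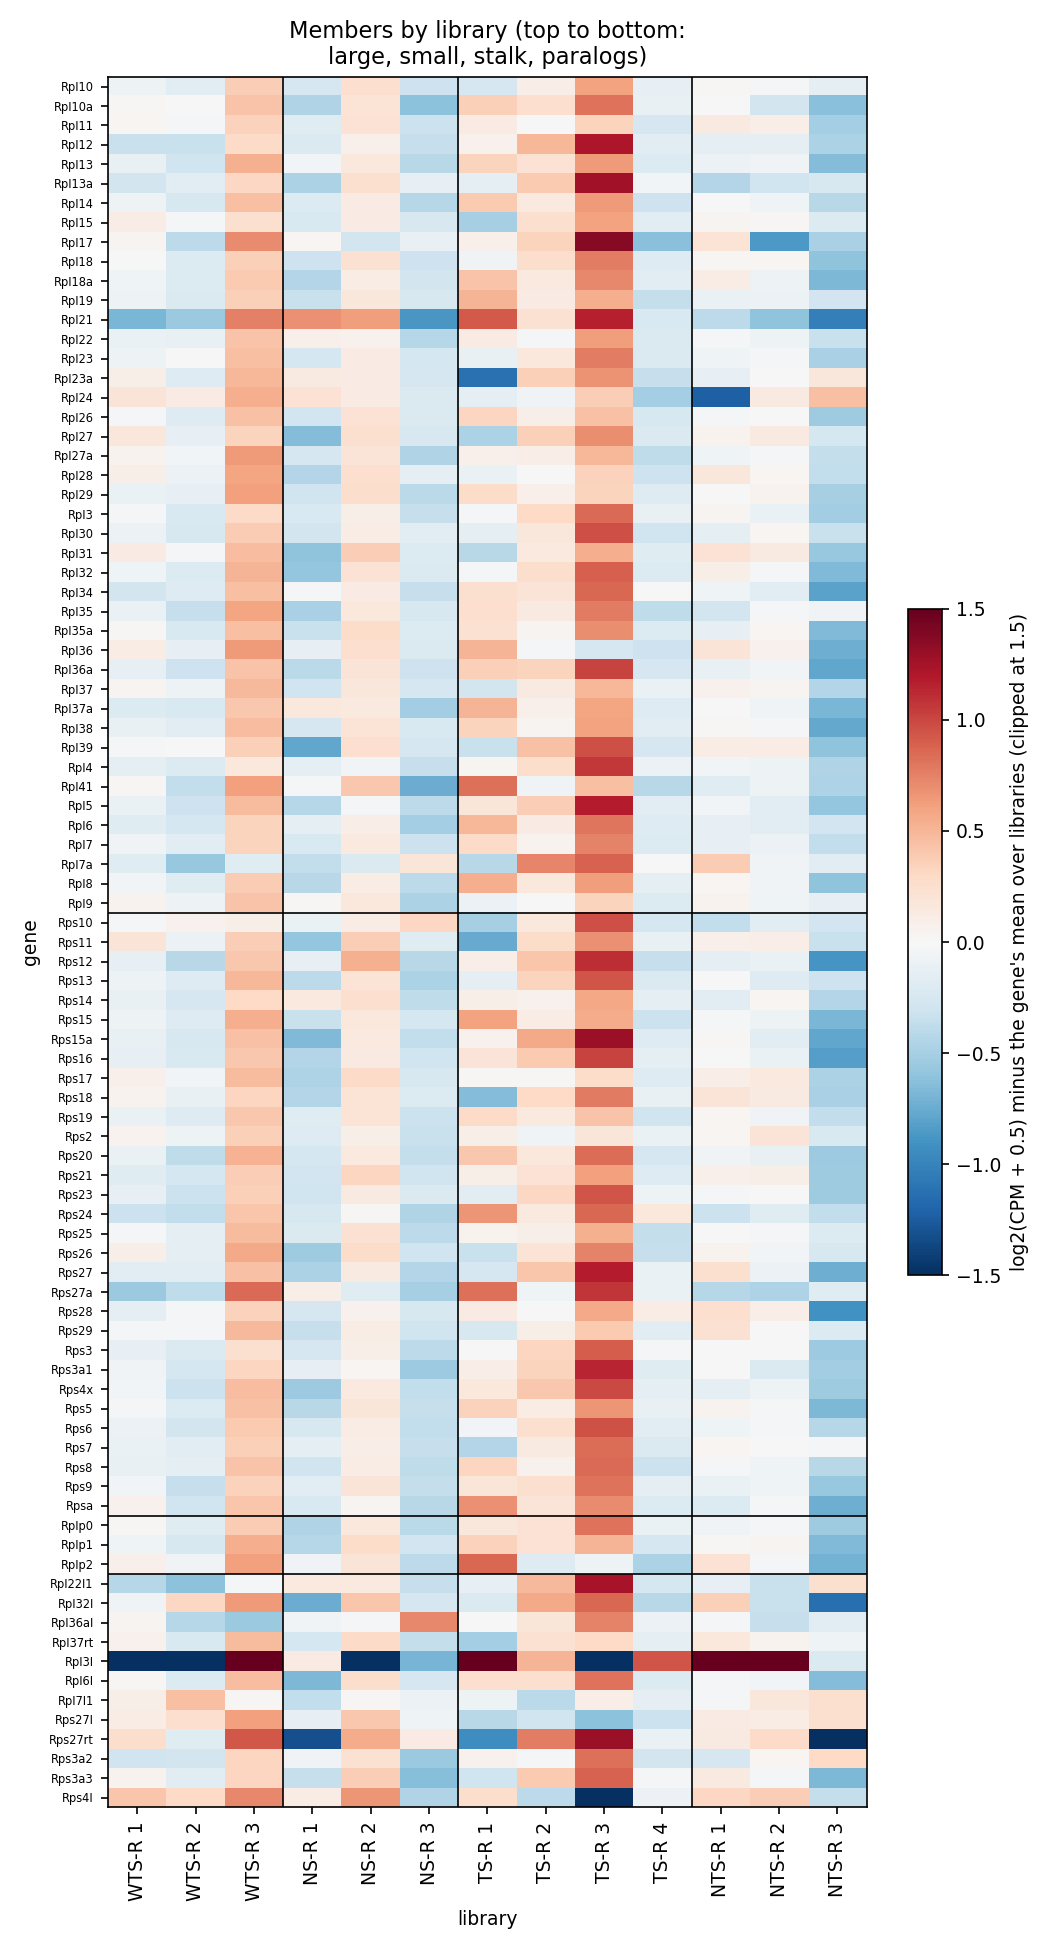
Each row is 1 of the 89 tested members and each column a library; colour gives log2(CPM + 0.5) minus the gene's own mean over the 13 libraries, clipped at 1.5. Most core genes are red in TS-R replicate 3 and WTS-R replicate 3 and blue in NTS-R replicate 3, while Rpl3l, Rps27l and Rps4l in the bottom block follow other patterns.

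Of the reference genes and regulators among the core genes, Rps6, Rplp0 and Rpl5 followed this course. They were highest in TS-R replicate 3 and lowest in NTS-R replicate 3. Others departed from it: Rpl11 was highest in WTS-R replicate 3, and Rps18 was lowest in TS-R replicate 1 (219.9 CPM). Rps6, the small subunit protein that S6 kinases phosphorylate downstream of mTORC1, stood at 424.5, 372.5 and 589.5 CPM in WTS-R replicates 1 to 3 and at 381.7, 485.4 and 347.9 CPM in NS-R. In TS-R replicates 1 to 4 Rps6 measured 437.5, 533.0, 875.7 and 404.5 CPM. In NTS-R it measured 432.4, 441.8 and 333.9 CPM. Replicate 3 of TS-R was the highest and all 4 groups overlapped. Rplp0, the stalk protein that anchors Rplp1 and Rplp2 and a common reference gene in PCR, ranged from 695.5 to 1029 CPM in WTS-R, from 578.7 to 880.1 CPM in NS-R, from 737.1 to 1392 CPM in TS-R and from 544.1 to 777.4 CPM in NTS-R. Rpl5, which with Rpl11 binds Mdm2 when ribosome assembly fails, stood at 345.2, 298.4 and 513.1 CPM in WTS-R and at 418.6, 476.8, 840.2 and 330.7 CPM in TS-R. Rpl11 varied less, from 350.8 to 523.7 CPM in TS-R and from 412.4 to 528.6 CPM in WTS-R. Both genes overlapped between these groups.

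Levels were compared between genes per kilobase of coding sequence. The median core gene had a mean of 632 CPM per coding kilobase, with quartiles of 462 and 844. Rpl41, the shortest of the proteins, was highest at 4515 CPM per coding kilobase. Next came the stalk genes Rplp1 (1655) and Rplp2 (1634), which encode the flexible arms that recruit translation factors, then Rps24 (1616) and Rps29 (1589) of the small subunit. For such short genes the untranslated ends add reads that coding length does not count. Only 3 core genes lay under 100 CPM per coding kilobase: Rpl24, Rps10 and Rpl13a, with mean levels of 1.42, 6.05 and 11.3 CPM. In GENCODE M21, 47.0% of the exon bases of Rpl24, 20.6% of those of Rps10 and 35.4% of those of Rpl13a overlap another gene on the same strand. Processed copies also share sequence with the family: over the 84 members with a coding transcript, a median of 50.6% of 50-base words occur in another annotated gene. How the authors' counting treated such reads is not given in the sources used here, so levels of single members are uncertain where they share sequence.

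The start of the transcript is the feature for which this family is known, so the bases around the annotated starts were read for short TOP-like words. The words were CTTTC and, searched in the same way, CTTTT as well as CTTCC, on the transcribed strand from 10 bases before to 30 bases after the start, in RefSeq promoters (GRCm38.p6) that matched 65 members. At least 1 of the 3 words was present in 30 of 57 core genes (52.6%), in 5 of 8 paralogs (62.5%) and in 2286 of 11966 tested genes with a promoter (19.1%). CTTTC alone was in 17 of 57 core genes (29.8%), in 1 of 8 paralogs (12.5%) and in 5.13% of all tested genes. CCGGAAG, a core bound by ETS factors such as GABPA, was searched on both strands of the 300-base promoter and was found in 24 of 57 core genes (42.1%) and in 17.9% of all. CTTCC is also part of the reverse complement of CCGGAAG, so the same bases can count for both. TATAAA, searched on both strands, was in 10.5% of core genes and 9.64% of all. The windows below run from 10 bases before the start to base 20 of the transcript, with the TOP-like words in capitals. They show Rps27 and its 2 paralogs, then core genes with a TOP-like word: Rpl35, Rps6, Rps24, Rpl7a and Rpl28.
Rps27, chr3:90213629-90213658, minus strand: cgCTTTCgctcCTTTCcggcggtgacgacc
Rps27rt, chr9:114982720-114982749, minus strand: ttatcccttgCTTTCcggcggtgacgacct
Rps27l, chr9:66946076-66946105, plus strand: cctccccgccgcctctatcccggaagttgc
Rpl35, chr2:39005112-39005141, minus strand: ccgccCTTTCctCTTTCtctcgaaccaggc
Rps6, chr4:86857348-86857377, minus strand: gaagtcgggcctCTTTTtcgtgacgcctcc
Rps24, chr14:24490668-24490697, plus strand: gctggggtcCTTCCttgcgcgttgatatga
Rpl7a, chr2:26910797-26910826, plus strand: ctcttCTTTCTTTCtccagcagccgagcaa
Rpl28, chr7:4792955-4792984, plus strand: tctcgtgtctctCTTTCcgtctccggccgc
Rps27 and its copy Rps27rt share the stretch that begins with CTTTC, whereas the window of Rps27l holds none of the 3 words. A word is a description of these letters and not of a site in use.

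Recipients of cells from diabetic donors (TS-R) were first compared with recipients of wild-type cells (WTS-R). Most members were slightly higher in TS-R and no member passed the test. Of 89 members, 66 had a positive and 23 a negative fold change, with a median log2 fold change of 0.18 beside 0.03 over all tested genes. The quasi-likelihood test of edgeR called 0 members at an FDR of 0.05, and 0% of all 17270 tested genes. At an unadjusted p under 0.05, 2 members were higher, where 15.2% of all genes were, and 1 was lower, where 7.07% of all genes were. No member was higher in every TS-R library than in every WTS-R library (8.96% of all genes were), and 2 were lower in every one (8.15% of all genes were). DESeq2 called 1 member (11.1% of all genes) and limma with voom and sample weights called 6 (22.1% of all genes). Without TS-R replicate 3 the median was -0.03, with 34 members positive and 54 negative, and leaving out its replicate 4 gave 0.33. Within WTS-R, leaving out replicate 1, 2 or 3 gave a median of 0.11, 0.06 or 0.39. Each of these shares over all genes was higher than the members' own, except with edgeR, where both were 0. On library totals, without TMM factors, the median of all genes was 0.31 and that of the members 0.47, with 85 of them positive.

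Rps27l, the member with the smallest unadjusted edgeR p in this comparison, differed from the family. It stood at 81.27, 89.81 and 115.8 CPM in WTS-R replicates 1, 2 and 3, and at 69.21, 99.75 and 72.38 CPM in NS-R replicates 1, 2 and 3. In TS-R replicates 1 to 4 it measured 56.42, 61.09, 49.06 and 60.23 CPM. In NTS-R replicates 1, 2 and 3 it measured 82.02, 81.92 and 89.35 CPM. All 4 TS-R libraries lay below the other 9. On CPM scaled to all counts, without TMM factors, TS-R (59.27 to 67.85) still lay below WTS-R and NTS-R but overlapped with NS-R replicate 3 (62.71). The log2 fold change of TS-R against WTS-R was -0.75 (SE 0.18), with an edgeR unadjusted p of 0.000965 and an adjusted p of 0.0624. Over 22 other settings the log2 fold change lay between -0.87 and -0.49 and the adjusted p between 0.002 and 0.245. The adjusted p was past 0.05 with DESeq2 (0.002), which called 11.1% of all genes, and with limma-voom (0.0132), which called 22.1%. It was also past 0.05 with edgeR when replicate 1 (0.031) or replicate 4 (0.0409) of TS-R was left out. No share of all genes is given here for those edgeR fits. Every TS-R library was below every WTS-R library in 8.15% of all genes. With the lymphoid-rich replicate 3 left out, the fold change was -0.71 with an adjusted p of 0.0942. In TS-R replicate 1 Rps27l was at 56.42 CPM, with T and B cell markers at the 35.4 and 33.3 CPM given above, and the part of lymphoid RNA in the Rps27l result was not tested.

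Rps27, the parent gene, had no such course. Its CPM was 173.6, 173.3 and 261.8 in WTS-R replicates 1 to 3 and 162.3, 258.6, 436.6 and 180.0 in TS-R replicates 1 to 4, so the groups overlapped. Of the summed counts of Rps27 and Rps27l, Rps27l made up 31.9%, 34.1% and 30.7% in WTS-R and 33.2%, 32.0% and 33.8% in NS-R. In TS-R replicates 1 to 4 it made up 25.8%, 19.1%, 10.1% and 25.1%. In NTS-R replicates 1 to 3 it made up 26.5%, 31.1% and 43.5%, so that all 4 TS-R libraries lay below the other 9 in this proportion too. Taken against the family mean of its own library, Rps27l stood at -2.46 to -1.31 log2 units in TS-R and at -1.05 to -0.476 elsewhere. In GENCODE M21, 22.4% of the 50-base words of Rps27l occur in another gene, against 64.0% for Rps27. The 13 matrix genes also summed to less in every TS-R library (1196 to 2600 CPM) than in the others (2682 to 5541 CPM). The 14 cell cycle genes summed to more in every TS-R library (63.46 to 763.5 CPM) than in the others (23.72 to 50.87 CPM). The part of either list in the Rps27l result was not tested.

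**Figure D3:**
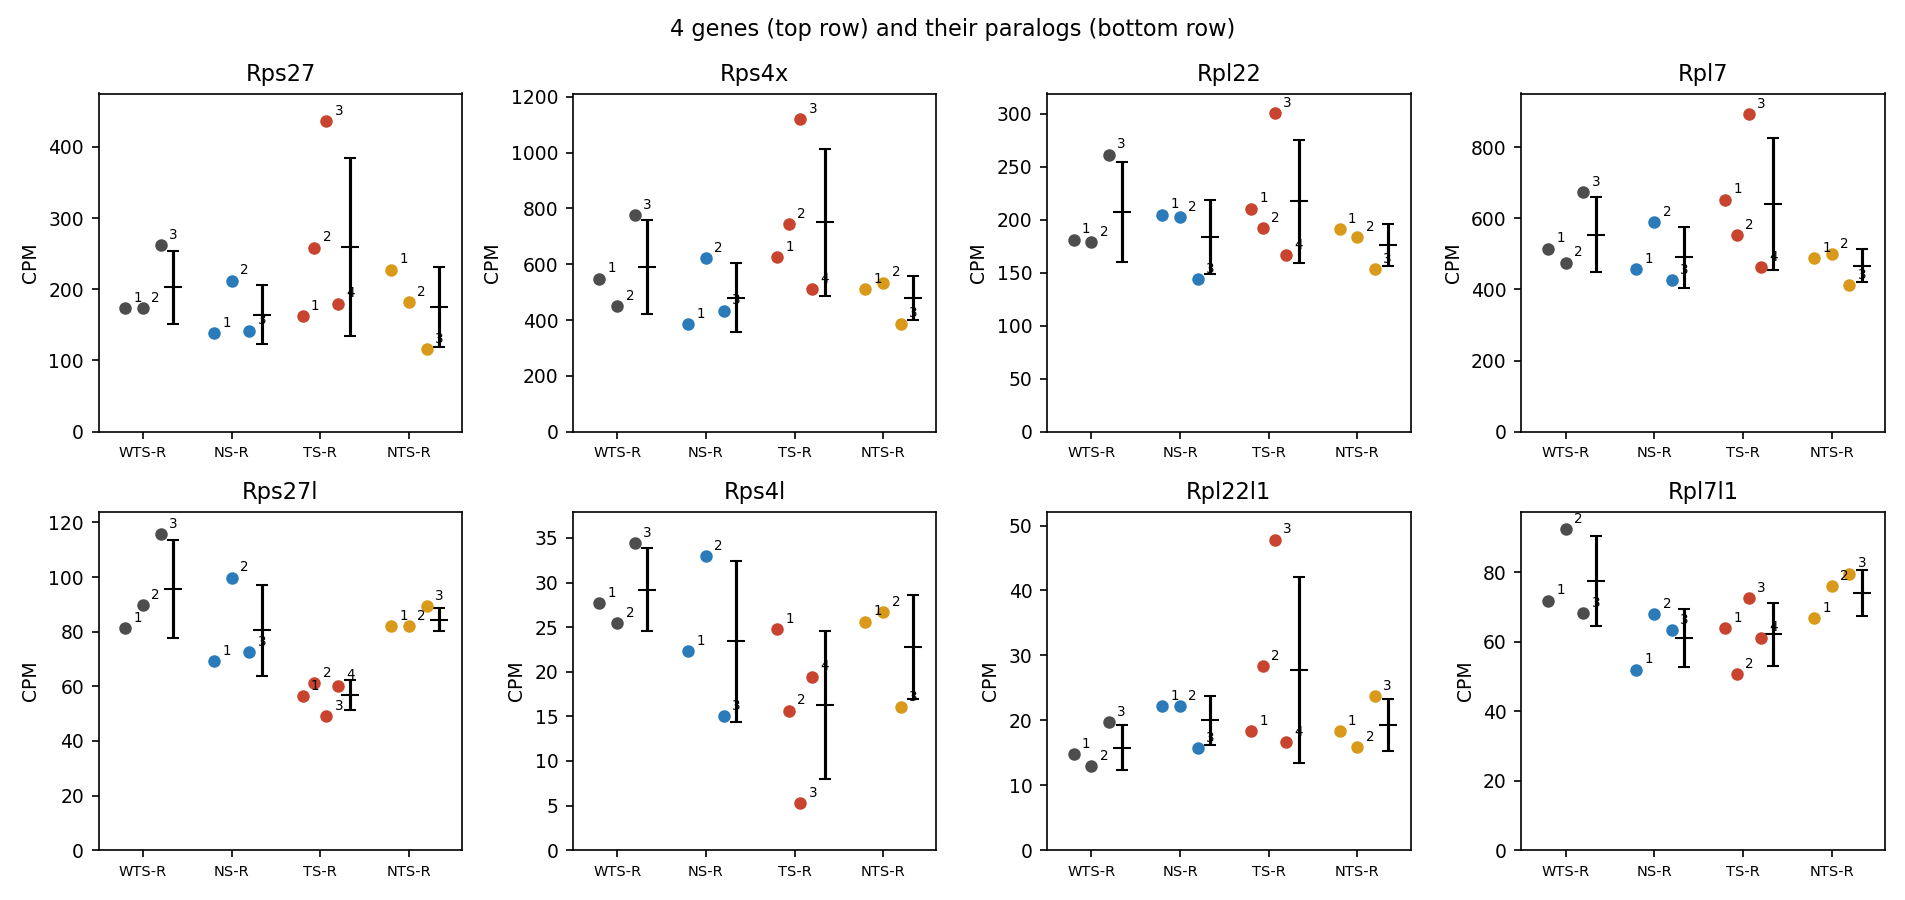
CPM of 4 core genes (top) and of a paralog of each (bottom) by group; points are libraries with replicate numbers, bars are mean and SD, and each axis starts at 0. Rps27l is lower in all 4 TS-R libraries (49.06 to 61.09 CPM) than elsewhere, while the other paralogs overlap with NS-R and NTS-R.

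The other members with the smallest p-values in this comparison had less even values within TS-R. Rps4l, a transcribed processed copy of Rps4x, stood at 27.71, 25.47 and 34.41 CPM in WTS-R and at 24.76, 15.65, 5.251 and 19.45 CPM in TS-R replicates 1 to 4. These groups did not overlap, the lowest value being that of replicate 3 (log2 fold change -0.84, SE 0.41, edgeR adjusted p = 0.253, and -0.56 without it). Rpl22l1, which can replace Rpl22 in the ribosome, stood at 14.82, 12.89 and 19.68 CPM in WTS-R and at 18.33, 28.38, 47.82 and 16.64 CPM in TS-R. Replicates 2 and 3 were high and replicates 1 and 4 lay within the range of WTS-R. Its log2 fold change was 0.82 (SE 0.34, edgeR adjusted p = 0.182), and 0.40 without TS-R replicate 3. Rpl7a, a large subunit protein, stood at 135.0, 103.1 and 134.2 CPM in WTS-R and at 114.4, 254.9, 281.5 and 151.7 CPM in TS-R. Here too replicates 2 and 3 were high, and the log2 fold change was 0.69 (SE 0.30, edgeR adjusted p = 0.202). With TS-R replicate 1 left out edgeR called Rpl7a (0.90, adjusted p = 0.0494), a fit for which no share of all genes is given here. With replicate 3 left out the log2 fold change of Rpl7a was 0.47. Rpl7l1, a paralog of Rpl7, stood at 71.78, 92.26 and 68.18 CPM in WTS-R and at 63.92, 50.62, 72.43 and 61.14 CPM in TS-R, and the groups overlapped. Its log2 fold change was -0.32 (SE 0.17, edgeR adjusted p = 0.293), limma-voom gave -0.50 with an adjusted p of 0.0199, and without WTS-R replicate 2 it was -0.18. Rpl36al had at most 1.04 CPM in any library.

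Recipients of diabetic cells lacking Nlrp3 (NTS-R) were then compared with TS-R. This comparison shares the TS-R libraries with the one above. All 77 core genes had a negative fold change, and over the 89 members 85 were negative, with a median of -0.45 beside -0.03 over all genes. The 4 positive members were the paralogs Rps27l, Rps4l, Rpl7l1 and Rpl37rt, and on library totals Rps27l and Rps4l alone were positive. The quasi-likelihood test of edgeR called 0 members and 0% of all genes at an FDR of 0.05. At an unadjusted p under 0.05, 12 members were lower, a share close to the 14.1% of all genes, and 1 was higher, where 5.59% of all genes were. In 5 members every NTS-R library was below every TS-R library (6.83% of all genes), and in 1 every one was above (5.7% of all genes). DESeq2 called 2 members (8.29% of all genes) and limma-voom 1 (9.48% of all genes). Without TS-R replicate 3 the median was -0.18, with 60 of 77 core genes negative. In that fit 2 of 88 members were lower at an unadjusted p under 0.05, a smaller share than the 1425 of 16874 tested genes. Without NTS-R replicate 3 the median was -0.29, with 70 of 77 core genes negative. By the same unadjusted p 1 member was lower, and no share of all genes is given beside it here.

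The 5 members whose groups did not overlap were Rps24, Rpl21, Rpl13a, Rpl34 and Rps27a. Rps24, a small subunit protein whose human gene is mutated in some Diamond-Blackfan anaemia, stood at 978.7, 681.5, 1124 and 690.2 CPM in TS-R replicates 1 to 4 and at 495.2, 542.4 and 477.5 CPM in NTS-R. The highest were TS-R replicates 1 and 3, and NTS-R lay near the low end of WTS-R (495.9, 477.7 and 822.6 CPM). The log2 fold change was -0.78 (SE 0.27, edgeR adjusted p = 0.141), DESeq2 gave -0.78 with an adjusted p of 0.0315, and limma-voom gave -0.44 with an adjusted p of 0.12. Rpl21 stood at 118.0, 72.97, 139.6 and 52.73 CPM in TS-R and at 47.11, 40.73 and 30.24 CPM in NTS-R (log2 fold change -1.28, SE 0.47, edgeR adjusted p = 0.165). Rpl21 was also high in WTS-R replicate 3 (104.8 CPM) and in NS-R replicates 1 and 2 (100.2 and 96.52 CPM), so it split libraries within 2 other groups. Rpl13a, which joins a translation-silencing complex after interferon gamma, stood at 9.635, 14.07, 26.22 and 10.30 CPM in TS-R and at 7.688, 8.542 and 8.951 CPM in NTS-R. Its log2 fold change was -0.85 (SE 0.34, edgeR adjusted p = 0.203), and -0.41 without TS-R replicate 3. Rps27a, which encodes a ribosomal protein fused to ubiquitin, stood at 256.2, 138.2, 305.1 and 134.5 CPM in TS-R and at 107.2, 104.9 and 127.3 CPM in NTS-R. Again TS-R replicates 1 and 3 were the high ones. Rpl34 ranged from 151.8 to 276.5 CPM in TS-R and from 86.85 to 145.8 CPM in NTS-R.

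Rps27l was the member higher in NTS-R than in TS-R in every library. Its log2 fold change was 0.57 (SE 0.18), with an edgeR unadjusted p of 0.00649 and an adjusted p of 0.116. DESeq2 gave an adjusted p of 0.0318 and limma-voom 0.0487, where they called 8.29% and 9.48% of all genes. Over 22 other settings the log2 fold change ran from 0.28 to 0.61 and the adjusted p from 0.0318 to 0.376.

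**Figure D4:**
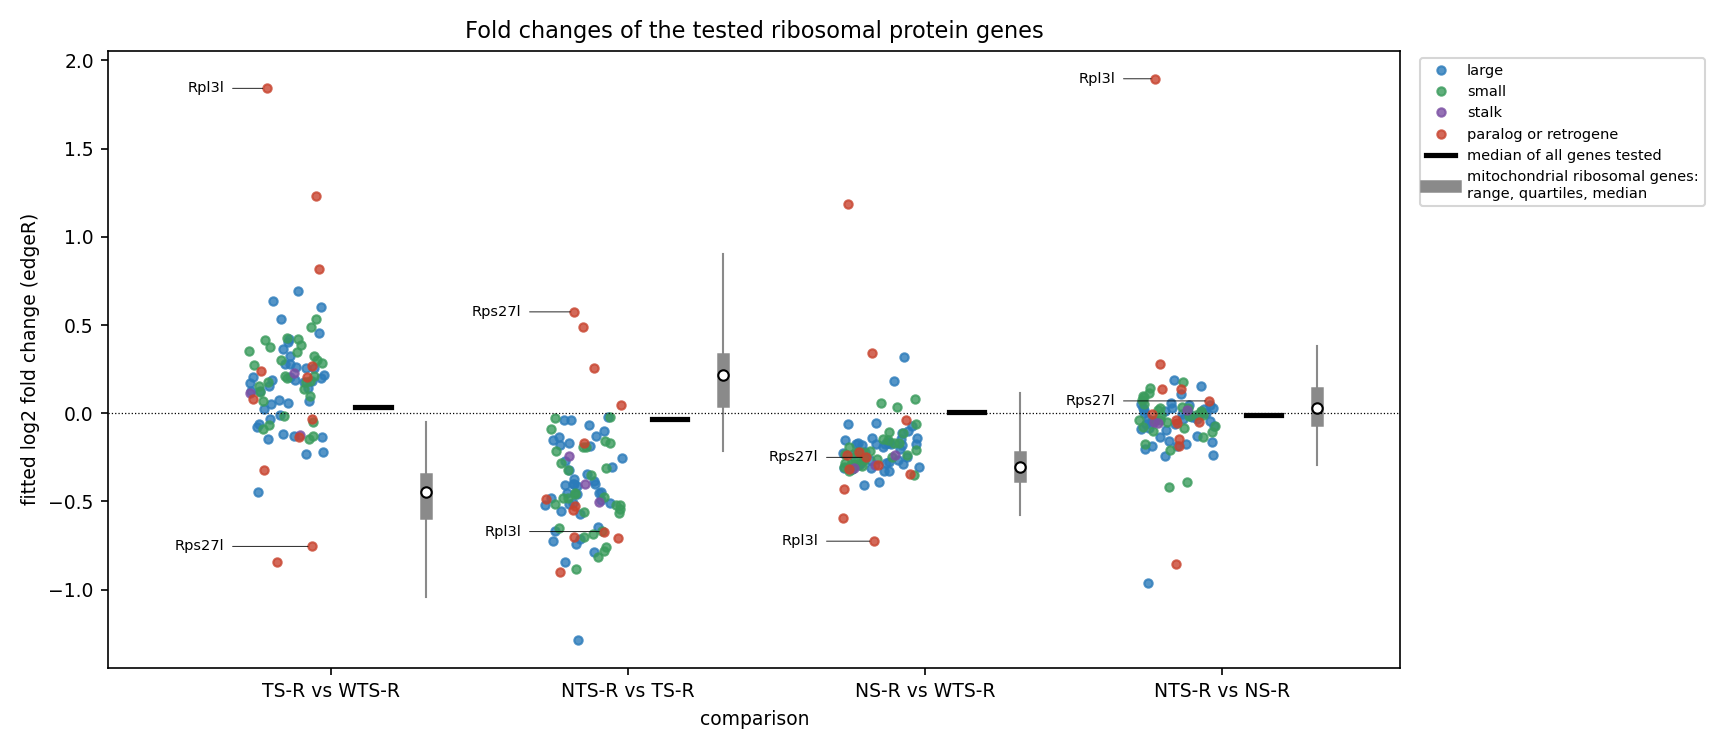
Fitted log2 fold changes (edgeR) of the 89 tested members in 4 comparisons, coloured by class, beside the median of all tested genes and the range, quartiles and median of the 77 mitochondrial ribosomal protein genes. In NTS-R vs TS-R all 77 core genes lie below 0 and Rps27l above it, and the mitochondrial set lies below 0 in TS-R vs WTS-R.

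Donor Nlrp3 without diabetes was compared next. In NS-R against WTS-R the median of the members was -0.23 beside 0.01 over all genes, with 82 negative and 7 positive. No member passed edgeR (0% of all genes), and 0 were higher or lower at an unadjusted p under 0.05, where 4.92% and 0.388% of all genes were. DESeq2 and limma-voom called 0 members (1.1% and 0.0811% of all genes). Without WTS-R replicate 3 the median was -0.02, and leaving out replicate 2 gave -0.36. Within NS-R, leaving out replicate 2 gave -0.39, and leaving out either replicate 1 or 3 gave -0.13. The part of airway RNA, high in NS-R replicates 1 and 2, was not tested here, in NTS-R against NS-R or in the interaction. The smallest unadjusted p among the lower members was that of Rpl7l1 (log2 fold change -0.34, edgeR adjusted p = 1).

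In NTS-R against NS-R, donor diabetes in the absence of Nlrp3, the median was -0.02 beside -0.01 over all genes, with 36 members positive and 53 negative. The quasi-likelihood test of edgeR called 0 members (0% of all genes), and 0 were higher or lower at an unadjusted p under 0.05, where 1.25% and 5.11% of all genes were. DESeq2 and limma-voom also called 0 (1.24% and 0.0695% of all genes). The sign of the median depended on single libraries: it was 0.16 without NS-R replicate 2, 0.12 once NTS-R replicate 3 was left out, -0.11 once either NTS-R replicate 1 or its NS-R counterpart in number was left out, -0.10 without NS-R replicate 3 and -0.07 when NTS-R replicate 2 was dropped. Rpl21 had the smallest unadjusted p (log2 fold change -0.96, SE 0.49, edgeR adjusted p = 0.863).

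The interaction asks whether the diabetes effect differed with donor Nlrp3, as NTS-R minus NS-R less TS-R minus WTS-R. Its median over the members was -0.23 beside -0.06 over all genes, with 64 negative and 25 positive. No member passed edgeR at an FDR of 0.05 (0% of all genes). At an unadjusted p under 0.05, Rps27l (0.82, SE 0.26, edgeR adjusted p = 0.156) and Rpl7l1 (0.60) were positive, where 4.7% of all genes were. Rpl21 (-1.60) and Rpl36al (-2.09, with 130 counts over all libraries) were negative, where 13.6% of all genes were. DESeq2 called Rps27l (adjusted p = 0.0454, 6.3% of all genes) and limma-voom called Rpl7l1 (adjusted p = 0.0353, 10.8% of all genes). Within TS-R, leaving out replicate 3 gave a median of 0.02 and leaving out replicate 4 gave -0.36. Within WTS-R, leaving out replicate 1, 2 or 3 gave -0.15, -0.09 or -0.41. Leaving out NS-R replicate 2 gave -0.002, and leaving out NTS-R replicate 3 gave -0.05.

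Rpl3l, the striated muscle paralog of Rpl3, varied more than any other member and not by group. It stood at 0.770, 0.755 and 16.7 CPM in WTS-R replicates 1, 2 and 3 and at 6.18, 1.385 and 3.27 CPM in NS-R. In TS-R replicates 1 to 4 it measured 66.7, 8.22, 0.536 and 11.2 CPM. In NTS-R replicates 1 to 3 it measured 16.8, 19.4 and 4.76 CPM. The order of the libraries was close to that of 14 fast skeletal muscle genes, which summed to 14990 CPM in TS-R replicate 1, 2177 CPM in WTS-R replicate 3 and 21.9 CPM in TS-R replicate 3. In WTS-R replicates 1 and 2 that sum was 24.4 and 17.3 CPM. Rpl3l made up 12% of the counts of Rpl3 and Rpl3l in TS-R replicate 1 and 0.0595% in TS-R replicate 3. None of its 50-base words occur in another annotated gene. The plot of both measures was chosen after their values were seen, and the part of muscle RNA in the other members' values was not tested.

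**Figure D5:**
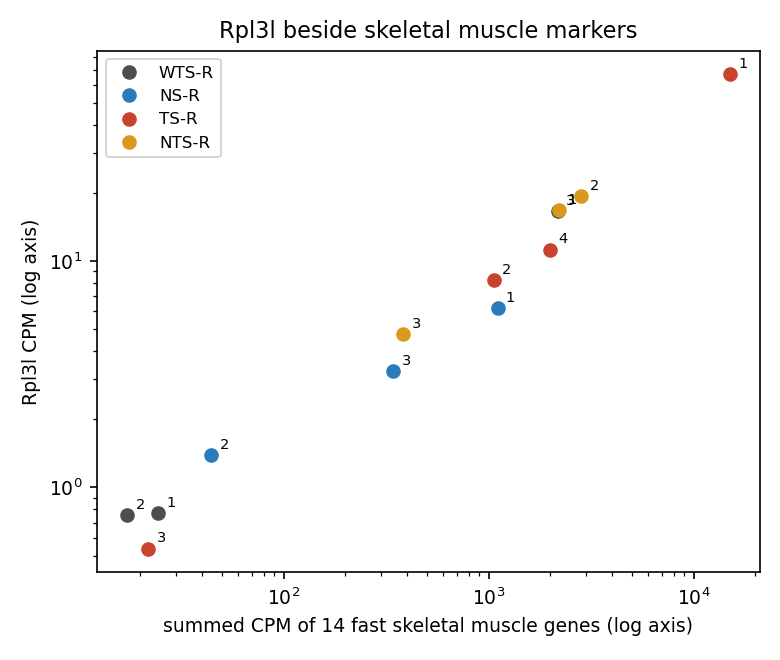
CPM of Rpl3l against the summed CPM of 14 fast skeletal muscle marker genes in each of the 13 libraries, both on log axes; numbers are replicates and colours groups. The libraries lie along a rising line from TS-R replicate 3 (0.536 CPM of Rpl3l) to TS-R replicate 1 (66.7 CPM), with no group to itself.

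The mitochondrial ribosome was set beside the cytosolic one. In TS-R against WTS-R all 77 mitochondrial ribosomal protein genes had a negative fold change, with a median of -0.45. At an unadjusted p under 0.05, 33 of them were lower, where 7.07% of all genes were, and 0 were higher. DESeq2 called 14 lower (1.97% of all genes), edgeR called 0 (0% of all genes), and in 26 every TS-R library was below every WTS-R library, as in 8.15% of all genes. Mrpl21 (log2 fold change -0.73, SE 0.18) and Mrpl39 (-0.86, SE 0.22), both of the large mitochondrial subunit, had edgeR adjusted p-values of 0.0624. Without TS-R replicate 3 all 77 were still negative, with a median of -0.35. At an unadjusted p under 0.05, 26 were lower, beside 1079 of 16874 tested genes. On library totals alone the median was -0.17 with 68 negative and 8 lower, beside 288 of 17270 tested genes. As a share of all assigned counts this set took 0.591% in TS-R replicate 1, the highest of the 13 libraries, and 0.281% to 0.367% in the other TS-R libraries, against 0.425% to 0.5405% in WTS-R. Its mean share was 0.464% in WTS-R, 0.383% in NS-R, 0.398% in TS-R and 0.376% in NTS-R, and the TS-R libraries overlapped with each of the other groups on this scale. Brown adipocyte markers summed to 6783 to 9261 CPM in WTS-R and to less in every other group. The sums were 1129 to 5147 CPM in TS-R, 4288 to 5861 CPM in NS-R and 5079 to 5325 CPM in NTS-R. The part of these markers in this result was not tested. Set against TS-R, NTS-R had a median of 0.22 over these genes, with 66 positive, and of -0.08 on library totals. In NS-R against WTS-R the median was -0.31, with 76 negative. At an unadjusted p under 0.05, 5 were lower, where 0.388% of all genes were. In 28 every NS-R library was below every WTS-R library, as in 1106 of 17270 tested genes. Lower values than in WTS-R were thus not particular to TS-R.

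Other genes of the translation machinery were counted by list. Of 22 further TOP and ribosome-bound genes, 17 were positive and 2 were higher at an unadjusted p under 0.05 in TS-R against WTS-R, a smaller share than the 15.2% of all genes: Nap1l1, a histone chaperone (0.91, SE 0.37), and Npm1, a nucleolar assembly factor (0.86, SE 0.40). Their edgeR adjusted p-values were 0.174 and 0.222. Both were highest in TS-R replicate 3 (325.3 and 446.7 CPM) and the groups overlapped; without that library their log2 fold changes were 0.32 and 0.19, and the list's median was -0.04 in place of 0.11. Of 29 initiation and release factors, 22 were negative and 1 was lower at an unadjusted p under 0.05 (7.07% of all genes): Eif2b1, a subunit of the exchange factor for eIF2 (-0.69, SE 0.21, edgeR adjusted p = 0.0836, DESeq2 0.0323). This list had a median of -0.18, or 0.11 on library totals. Of 40 ribosome biogenesis genes, 3 were higher and 2 were lower by the unadjusted p (15.2% and 7.07% of all genes), with a median of 0.10, or -0.18 without TS-R replicate 3. Ncl, the nucleolar protein nucleolin, was higher (0.95, SE 0.33, edgeR adjusted p = 0.116, DESeq2 0.0376, and 0.53 without TS-R replicate 3), and Nop10, part of the pseudouridylation complex, was lower (-0.73, SE 0.22, edgeR adjusted p = 0.0828, DESeq2 0.0273). On library totals the log2 fold changes of Eif2b1 and Nop10 were -0.43 and -0.45. None of 9 snoRNA host genes differed at an unadjusted p under 0.05. Of 20 regulators of TOP mRNAs and mTORC1, 3 were higher at an unadjusted p under 0.05, close to the 15.2% of all genes, among them Mycn, a transcription factor of the Myc family (1.65, SE 0.54), and Rps6ka1, a kinase of Rps6 (1.52, SE 0.58). Their edgeR adjusted p-values were 0.103 and 0.148. Rps6ka1 overlapped between the groups, with its highest value in TS-R replicate 3 (56.94 CPM), and its log2 fold change was 0.78 without that library. Mycn was at no more than 2.287 CPM in any library.

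The same lists gave few low p-values when NTS-R was set against TS-R. Of the 22 TOP and ribosome-bound genes 17 were negative (median -0.28) and 2 were lower at an unadjusted p under 0.05, where 14.1% of all genes were lower and 5.59% higher. Of the 40 biogenesis genes 1 was higher and 1 lower, the lower being Ncl (-0.90, SE 0.33, edgeR adjusted p = 0.162, and -0.47 without TS-R replicate 3). Among the 20 regulators 1 was higher and 1 lower, the lower being Rps6ka1 (-1.72, SE 0.58, edgeR adjusted p = 0.136, DESeq2 0.0286, and -0.96 without TS-R replicate 3). Of the 29 initiation and release factors 2 were higher and 0 lower, both named here: Eif2b1 (0.50, SE 0.21) and Eif1a (0.52, SE 0.22). On library totals both were at 0.22.

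Other paralogs and retrogenes took up to 24.7% of the counts of the pair they form with their parent gene. Rps27rt, a retrogene of Rps27, was 8.0% to 22.1% of the counts of that pair, and Rpl37rt 10.5% to 15.2% of its pair with Rpl37. Rpl6l made up 5.73% to 9.67% of its pair with Rpl6, and Rps3a2 12.6% to 24.7% of its pair with Rps3a1. Rpl32l stayed under 1% of its pair, at 0.204% to 0.716%. Among the 11 core genes with under 30% of their words in other genes, the median was 0.25 in TS-R against WTS-R, with 11 of 11 positive, and -0.51 in NTS-R against TS-R, with 11 of 11 negative. Without TS-R replicate 3 those medians were 0.05 and -0.24.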

How the data were processed

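The deposited table holds whole-number counts per gene from bulk RNA sequencing; the authors worked with HISAT2 and featureCounts, per the submitters' processing notes. Tool versions, build, annotation release and strandedness were not given in the sources used. Identifiers were matched to symbols (33302 of 34013). All 13 libraries entered 1 quasi-likelihood fit of edgeR 4.0.16 (R 4.3.3) with filterByExpr (17270 genes) and TMM scaling, with Benjamini-Hochberg adjustment over all tested genes and a threshold of 0.05. The common biological coefficient of variation was 0.389. CPM values are counts scaled to TMM-adjusted library size. Alternatives were DESeq2 1.42.0, limma 3.58.1 (voomWithQualityWeights), other scalings, no filter, 2 groups only, each library left out, libraries without Xist, and the replicate number as a block. The fit was tested on simulated data. Libraries of a group differed beyond sampling noise (chi-square per degree of freedom at least 32.4). Counting error at this depth is small beside that spread. Named were the paralogs and their parents, the stalk and reference genes, the 3 members per direction and comparison with the smallest unadjusted edgeR p, those nearest to and farthest from the family mean, the 5 highest per coding length, and 2 genes per other list. Rpl34, Rpl28, Rpl35 and the large-to-small ratio were chosen after their values were seen, as were the alternatives for the other lists and their genes. The members and lists were chosen with earlier results of these data known. Sequences are RefSeq's.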

Additional observations from a re-analysis of the deposited data

Results flagged for a closer look

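The level of Rpl3l in TS-R drew attention because 1 library lay far from the other 3. TS-R replicate 1 was at 66.71 CPM, and replicates 2, 3 and 4 at 8.223, 0.5363 and 11.22 CPM. The gap to the nearest library was 0.839 of the group's range, above Dixon's 95% critical value for 4 samples. This was 1 of 44 values examined in this way, and chance alone exceeds it in about 5% of groups. The 14 fast skeletal muscle genes were also highest in that library, at 14990 CPM.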

How the results depend on the processing

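The count of members called was 0 with edgeR in all 5 comparisons. In TS-R against WTS-R it was 1 with DESeq2, 6 with limma-voom and 0 to 2 when each library was left out; in NTS-R against TS-R it was 2 with DESeq2 and 1 with limma-voom, and in the interaction 1 with each. On library totals the median of all genes in these 3 comparisons shifted to 0.31, -0.33 and -0.41, and the median of the members to 0.47, -0.76 and -0.57. With each library left out, the members' median ran from -0.03 to 0.39 in TS-R against WTS-R, from -0.58 to -0.18 in NTS-R against TS-R, from -0.39 to -0.02 in NS-R against WTS-R, from -0.11 to 0.16 in NTS-R against NS-R and from -0.41 to 0.02 in the interaction. Without the Xist libraries those of the first 2 comparisons were 0.003 and -0.21. Rpl7l1 in NTS-R against TS-R went from 0.25 to -0.056 on library totals. Over 30 pairs of a named member and a comparison, 624 of 639 values kept direction and side of the threshold, and 14 passed it only under the alternative. The members' share without mitochondrially encoded genes in the total was 3.30% in WTS-R, 3.08% in NS-R, 4.14% in TS-R and 2.90% in NTS-R. Without the 50 highest genes it was 3.86%, 3.55%, 4.67% in TS-R and 3.36%. The cause was not tested.

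With the replicate number as a block, the medians were 0.32, -0.55, -0.22, -0.01 and -0.34 in the order above, and no member was called. Same-numbered libraries correlated at -0.229 to 0.282 over 18 pairs. Differently numbered libraries were not set beside them, so these values cannot show whether the numbers pair the samples.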
